A study of Mus musculus with 6 samples.

Results

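The cytosolic ribosomal protein genes of the mouse were examined for TAF4A binding at their promoters in wild-type muscle stem cells (MuSCs). The rule used symbols alone and took protein-coding genes named Rpl or Rps with a number (with the suffixes a, x, y or l, but no S6 kinases), Rplp0 to Rplp2 and Rpsa. No measured value entered the rule, but the family was picked with earlier results of these data known. In the CUT&RUN peak table, 43 of 1131 peaks were listed for such a gene. They belonged to 42 of the 83 ribosomal protein genes in the annotation (50.6%), whereas 832 of 21951 protein-coding genes (3.79%) had a listed peak. Of the 43 peaks, 25 were listed for 24 large-subunit genes and 18 for 18 small-subunit genes.

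The ribosome consists of a large subunit, which joins amino acids, and a small subunit, which reads the mRNA, and each is built from rRNA and a set of ribosomal proteins. The genes for these proteins are transcribed by RNA polymerase II at high rates, and many of their mRNAs start with a pyrimidine run, the 5′ TOP element, through which mTOR and LARP1 control their translation. TAF4A is a subunit of TFIID, the general transcription factor that positions the polymerase at core promoters. MuSCs are quiescent in resting muscle and build up their ribosomes when they are activated.

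All libraries came from in vitro cultured, activated and proliferating MuSCs of wild-type C57BL/6 mice, with no transgene or treatment named. Of the 6 libraries, 3 were made with a TAF4A antibody and 3 with mouse IgG. Read counts per peak were analysed for the TAF4A antibody alone and those of IgG were not used here, which means that no value below is relative to IgG. The study calls the libraries biological replicates, but the labels do not name animals or cultures, and p-values then measure only the spread between these libraries, which may be technical. Total counts over all peaks were 47723, 24826 and 32128 in replicates 1, 2 and 3, with a median of 26, 15 and 19 counts per peak. Counts were divided by the TMM-scaled library size, relative to the mean of the libraries, to give normalised counts. A higher count at a peak does not tell binding in more cells apart from more TAF4A per cell. A binding assay gives no expression level with which to check the labelled cell type. A peak was listed for 4 of 10 markers of muscle stem cells and myoblasts (Myod1, Des, Itga7 and Chrna1). The peak of Itga7 was 2261 bases from the listed start. Pax7, Myf5, Myog, Cdh15, Vcam1 and Sdc4 had no listed peak. Of the markers of blood, endothelial and fibro-adipogenic cells, 0 of 4 had one. With 3.79% of protein-coding genes having a listed peak, a count of 0 of 4 is what genes of any kind would mostly give, and it does not check the cell type.

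The promoter sequences of the genes with the highest counts are shown first, because the motifs in them are counted further on. The letters are RefSeq sequence of GRCm38.p6 on the strand of the gene and run from 150 bases before the RefSeq start to 20 bases after it. Capitals mark matches to CCAAT (the NF-Y core), GGGCGG (the SP1 core), CCGGAAG (bound by ETS factors such as GABPA) and TCTCGCG (an arm of the palindrome of ZBTB33 type), found on either strand, so that a match to the other strand reads as its reverse complement.
Rps2, chr17:24719913-24720082, plus strand: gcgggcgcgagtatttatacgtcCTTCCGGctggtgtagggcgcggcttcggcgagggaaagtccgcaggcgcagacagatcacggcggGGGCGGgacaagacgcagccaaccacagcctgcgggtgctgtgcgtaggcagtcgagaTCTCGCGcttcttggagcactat
Rpl10, chrX:74270666-74270835, plus strand: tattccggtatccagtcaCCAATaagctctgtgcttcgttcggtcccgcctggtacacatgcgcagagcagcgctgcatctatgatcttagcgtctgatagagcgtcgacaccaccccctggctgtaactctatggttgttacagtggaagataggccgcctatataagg
Rplp0, chr5:115559317-115559486, plus strand: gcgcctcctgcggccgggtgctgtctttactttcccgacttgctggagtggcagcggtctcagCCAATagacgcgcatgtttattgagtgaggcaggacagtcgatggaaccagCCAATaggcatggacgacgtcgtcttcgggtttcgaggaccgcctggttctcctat
Rpl41, chr10:128549149-128549318, minus strand: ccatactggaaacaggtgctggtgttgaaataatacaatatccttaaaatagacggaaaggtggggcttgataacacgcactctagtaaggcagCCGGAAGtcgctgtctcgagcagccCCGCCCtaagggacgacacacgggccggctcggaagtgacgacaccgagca
Rps26, chr10:128626487-128626656, minus strand: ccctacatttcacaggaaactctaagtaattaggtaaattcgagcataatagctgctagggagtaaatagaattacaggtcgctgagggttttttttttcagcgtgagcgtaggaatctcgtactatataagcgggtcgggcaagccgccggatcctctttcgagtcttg
Rps21, chr2:180257229-180257398, plus strand: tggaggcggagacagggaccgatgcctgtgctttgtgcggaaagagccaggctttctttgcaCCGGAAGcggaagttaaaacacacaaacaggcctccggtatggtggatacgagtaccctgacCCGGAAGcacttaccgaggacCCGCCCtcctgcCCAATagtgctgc
Rpl13a, chr7:45128726-45128895, minus strand: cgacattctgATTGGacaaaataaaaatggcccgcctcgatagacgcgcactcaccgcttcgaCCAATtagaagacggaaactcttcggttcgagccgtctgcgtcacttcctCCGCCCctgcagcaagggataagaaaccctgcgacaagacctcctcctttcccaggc
Rps19, chr7:24884442-24884611, plus strand: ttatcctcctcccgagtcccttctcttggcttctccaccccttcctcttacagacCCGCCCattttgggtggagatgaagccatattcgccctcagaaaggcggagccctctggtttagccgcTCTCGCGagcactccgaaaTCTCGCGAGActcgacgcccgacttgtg

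Different motifs stood in these promoters. Rplp0 had CCAAT centred 85 and 34 bases before the start. Rps2 carried the ETS, SP1 and ZBTB33-type motifs, the last of them at the start itself. Rps21 carried the ETS motif at 2 places. Rps19 was chosen for its TCTCGCG matches, which read on into the full palindrome just before the start. In the window of Rps26, which had the widest peak of all 43, none of the 4 motifs was found, but a CCGGAAG lay upstream of the printed stretch, 211 bases before the start and in the central 200 bases of the peak. For comparison, the same stretch is given for a large-subunit and a small-subunit gene without a peak within 1000 bases, Rpl19 and Rps16, both of which have matches too.
Rpl19, chr11:98026560-98026729, plus strand: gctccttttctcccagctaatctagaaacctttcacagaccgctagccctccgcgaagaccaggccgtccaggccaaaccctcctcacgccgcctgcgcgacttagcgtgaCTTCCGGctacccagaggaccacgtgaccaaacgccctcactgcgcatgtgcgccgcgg
Rps16, chr7:28350539-28350708, plus strand: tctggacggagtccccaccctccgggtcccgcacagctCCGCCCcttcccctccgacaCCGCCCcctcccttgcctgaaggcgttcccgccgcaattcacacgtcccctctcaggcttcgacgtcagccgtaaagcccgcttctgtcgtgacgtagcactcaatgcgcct

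The pyrimidine run at the start is what the genes of this family are best known for. In the next sequences, from 10 bases before the annotated start to 20 bases after it, capitals mark the run counted from its first C within 5 bases of the start. The first 6 genes had a listed peak, and the longest run found in the family was that of Rpl27a (20 bases).
Rpl27a, chr7:109519185-109519214, plus strand: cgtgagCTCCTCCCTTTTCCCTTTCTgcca
Rpl13a, chr7:45128726-45128755, minus strand: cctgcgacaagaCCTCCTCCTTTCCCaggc
Rpl28, chr7:4792955-4792984, plus strand: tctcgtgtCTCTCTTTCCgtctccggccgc
Rps6, chr4:86857348-86857377, minus strand: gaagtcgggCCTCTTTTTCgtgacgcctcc
Rps9, chr7:3704031-3704060, plus strand: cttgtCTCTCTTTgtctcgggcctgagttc
Rps24, chr14:24490668-24490697, plus strand: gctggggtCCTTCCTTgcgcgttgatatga
These 4 genes had no peak within 1000 bases and start with runs of the same kind.
Rpl35, chr2:39005112-39005141, minus strand: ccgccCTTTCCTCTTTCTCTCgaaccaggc
Rps10, chr17:27635225-27635254, minus strand: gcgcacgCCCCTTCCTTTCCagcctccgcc
Rpl18, chr7:45718061-45718090, plus strand: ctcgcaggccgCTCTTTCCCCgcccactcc
Rpl14, chr9:120571507-120571536, plus strand: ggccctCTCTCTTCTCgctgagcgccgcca

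It was asked next which ribosomal protein genes had a TAF4A peak and which did not. A peak was listed for 24 of 51 large-subunit genes and 18 of 32 small-subunit genes. They included Rplp0 and Rplp1 of the stalk that recruits translation factors, Rps3 at the mRNA entry, Rps6, the main substrate of the S6 kinases, and Rpl10, which is added late in the maturation of the large subunit. Another 6 genes of the rule are paralogs of a ribosomal protein gene, such as the muscle-restricted Rpl3l and the testis-enriched Rpl10l, and 0 of these 6 (Rpl3l, Rpl7l1, Rpl10l, Rpl22l1, Rpl39l and Rps27l) had a listed peak. Among the other 77 genes, 42 (54.5%) had one. For 6 genes, a count of 0 is near the share of all protein-coding genes (3.79%), and it is no result about paralogs.

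Each peak was listed for 1 gene only, which matters where genes lie close together. At 6 further ribosomal protein genes a peak centre lay within 1000 bases of an annotated transcript start but was listed for a neighbour. Counted in this way, 48 of 83 ribosomal protein genes (57.8%) had a peak at a transcript start, compared with 941 of 21951 protein-coding genes (4.29%). The peak 29.5 bases from an Rpl15 transcript start was listed for Nkiras1 and had 86, 65 and 62 counts in replicates 1, 2 and 3, or 73.3 ± 14.3 normalised counts (SD, n = 3). After scaling, replicate 2 was the highest here. The peak 40 bases from an Rpl3 transcript start was listed for Syngr1, whose own start is 7888 bases away, and had 103, 44 and 52 counts, or 64.4 ± 12.3 normalised counts (SD, n = 3). Both means would stand among the 10 highest members. Rpl7a had 41, 25 and 42 counts in a peak listed for Med22. Rps18 had 47, 22 and 37 counts in a peak listed for Vps52. Rps27 had 36, 20 and 21 counts in a peak listed for Rab13. All 3 of these were above the median of all peaks in every library. Rpl35a had the weakest of these peaks, listed for Iqcg, with 15, 3 and 20 counts, and the 3 values departed from the library sizes (Benjamini-Hochberg adjusted p = 0.0495 in a chi-square test per peak). Of the genes with a listed peak, only Rps24 had a further peak of this kind, 38 bases from one of its transcript starts and listed for Polr3a. It had 12, 7 and 7 counts, or 8.69 ± 1.23 normalised counts (SD, n = 3), fewer in each library than the 29, 25 and 22 counts of the peak listed for Rps24.

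The divergent starts of Med22 and Rpl7a are 87 bases apart and those of Rab13 and Rps27 are 44 bases apart. A single peak covers both of these annotated starts in each pair, and a count cannot be assigned to either gene. The RefSeq start of Rpl7a (26910807) lies beyond the end of the peak (26910794). The sequence from 20 bases within one gene to 20 bases within the other is printed for both pairs on the plus strand, with the same motifs in capitals. Between Rab13 and Rps27 none was found.
Med22 and Rpl7a, chr2:26910657-26910784, plus strand: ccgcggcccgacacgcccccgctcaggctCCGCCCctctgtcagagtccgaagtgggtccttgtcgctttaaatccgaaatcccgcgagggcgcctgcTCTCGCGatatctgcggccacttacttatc
Rab13 and Rps27, chr3:90213631-90213715, plus strand: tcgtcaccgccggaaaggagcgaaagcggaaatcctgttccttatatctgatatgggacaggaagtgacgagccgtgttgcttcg

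The remaining 35 genes, 23 of the large and 12 of the small subunit, had no peak centre within 1000 bases of a transcript start. The nearest peak centre was 3615 to 3535714.5 bases away, with a median of 479688.5 bases. In the large subunit these were Rpl5 and Rpl11, which carry the 5S rRNA into the ribosome, the stalk protein Rplp2, and Rpl6, Rpl7, Rpl7l1, Rpl9, Rpl10a, Rpl10l, Rpl12, Rpl14, Rpl18, Rpl19, Rpl21, Rpl22, Rpl22l1, Rpl23a, Rpl30, Rpl34, Rpl35, Rpl37a, Rpl39l and Rpl3l. In the small subunit they included Rps7, Rps10, Rps14, Rps16, Rps23, Rps27l and Rps28. Fau and Rpl36al, which encode ribosomal proteins under symbols outside the rule, had no listed peak either, and the nearest peak centres were 179758 and 2646900 bases away. Without counts outside the peaks, it cannot be told whether TAF4A was absent from these promoters or bound below the peak threshold.

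Reads that map to several places were removed by the authors, and ribosomal protein genes have many processed copies in the genome. Of the 250 bases before the start, 30 of 31 promoters with a listed peak and 24 of 27 without a peak were fully unique over stretches of 38 bases. This is the read length of replicates 1 and 2, and reads of replicate 3 were longer. The lowest value was 69.0% at Rpl37a, which had no peak. In the 50 bases after the start, which belong to the transcript, fewer than 50% of the stretches were unique at 2 of 31 promoters with a listed peak and 3 of 27 without. Of the member peaks, 39 of 43 were fully unique and the lowest value was 92.3%. The part of these copies in the missing peaks was not tested.

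Next, counts in the 3 TAF4A libraries were compared among the members, as the plot of normalised counts by gene shows. The mean normalised count ranged from 12.1 to 109.3 with a median of 29.6, while the median of the 724 other promoter peaks was 22.7. Other promoter peaks are peaks of other protein-coding genes with a deposited distance of at most 1000 bases. Each member was counted in each library, with at least 6 counts, and 37 of 43 (86.0%) reached 10 counts in all 3 libraries, compared with 511 of 724 other promoter peaks (70.6%).

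**Figure D1:**
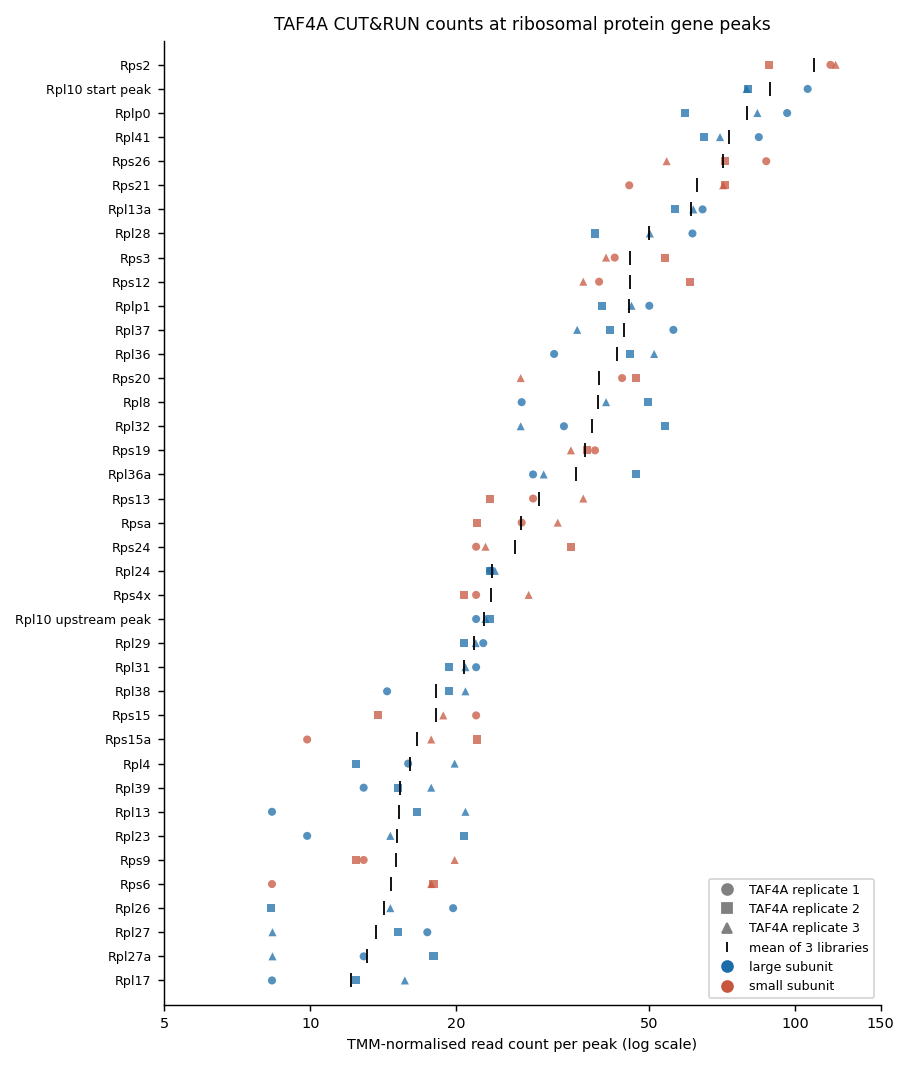
TMM-normalised read counts on a log scale for 39 of the 43 peaks, 1 row per peak, with a point for each TAF4A library, a bar for the mean, and colour for the subunit. The means run from 12.1 at Rpl17 to 109.3 at Rps2, and the points of 1 peak mostly lie within a 2-fold range.

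The highest member was Rps2 (ENSMUSG00000044533), a core protein of the small subunit near the mRNA entry. Its peak (GRCm38 chromosome 17, 24719847 to 24720156, plus strand) had 156, 64 and 116 counts in replicates 1, 2 and 3, or 109.3 ± 18.2 normalised counts (SD, n = 3). This was at the 97.3rd percentile of all 1131 peaks. Replicate 2 was the lowest after scaling (88.4), and replicates 1 and 3 were alike (118.3 and 121.2). The peak centre was 61.5 bases upstream of an Rps2 transcript start. It was nearer, at 36.5 bases, to the start of Snhg9, a host gene of small nucleolar RNA. Rps2 was the only member with another gene's start nearer than its own.

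The large-subunit gene with the highest count was Rpl10 (ENSMUSG00000008682, chromosome X), the only member with more than 1 listed peak. The peak over its start (74270599 to 74270896) had 140, 58 and 76 counts, or 88.6 ± 15.2 normalised counts (SD, n = 3). Replicate 1 was higher (106.1) than replicates 2 and 3 (80.1 and 79.4). The upstream peak (74270238 to 74270398) had 29, 17 and 22 counts, or 22.8 ± 0.76 normalised counts, and its centre was 494 bases before the start and 429.5 bases from that of the other peak. At the upstream peak the 3 libraries were alike, between 22.0 and 23.5.

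Next in order were Rplp0, Rpl41 and Rps26. Rplp0, the scaffold of the ribosomal stalk, had 127, 43 and 80 counts, or 79.8 ± 18.7 normalised counts (SD, n = 3). Rpl41, which encodes a very short peptide, had 111, 47 and 67 counts, or 73.0 ± 9.97 normalised counts. Rps26, at the mRNA exit of the small subunit, had 115, 52 and 52 counts, or 71.1 ± 16.4 normalised counts. Replicate 1 was the highest library at all 3 of these genes. These 3 neighbours in the order lay within their spread of each other. Rps21 and Rpl13a were also among the 10 highest members, with means of 62.8 and 60.9 that were less than either SD apart.

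The lowest member was Rpl17 (chromosome 18), a protein at the peptide exit tunnel, with 11, 9 and 15 counts, or 12.1 ± 3.68 normalised counts (SD, n = 3). Rpl27a had 17, 13 and 8 counts, or 13.1 ± 4.80 normalised counts. Rpl27 had 23, 11 and 8 counts, or 13.7 ± 4.73 normalised counts. Replicate 3 was the lowest library at Rpl27a and Rpl27 and the highest at Rpl17. Rpl26 had 26, 6 and 14 counts, or 14.2 ± 5.72 normalised counts. Rps6 had 11, 13 and 17 counts, or 14.7 ± 5.50 normalised counts. With so few counts the order of these 5 genes was not detectable.

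The subunits were then set against each other. Large-subunit peaks had a median of 23.7 normalised counts and small-subunit peaks of 33.2. Wider peaks collect more counts, so values were also taken per base. In log2 counts per base (with 1 count added), the median of the large-subunit peaks minus that of the small-subunit peaks was -0.31, -0.14 and -0.16 in replicates 1, 2 and 3. Their mean was -0.20 ± 0.09 (SD, n = 3), lower in 3 of 3 libraries. The exact sign-flip permutation test over libraries gave p = 0.25, the smallest value that 3 libraries allow, so this design could not reach 0.05. The overlap of the subunits was wide, and both the second-highest and the lowest member belonged to the large subunit.

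Members were compared with the other promoter peaks in the same way. The difference in median log2 counts per base was 0.09 in replicate 1, 0.25 in replicate 2 and 0.22 in replicate 3. On average it was 0.19 ± 0.08 (SD, n = 3), higher in 3 of 3 libraries. The exact sign-flip permutation p was again 0.25, the smallest possible. When only peaks that reached 10 counts in all 3 libraries were kept, the difference was 0.055 ± 0.10, and it was negative in replicate 1. In each library, the 43 peaks held 4.46% (95% Clopper-Pearson interval 4.28 to 4.65), 4.76% (4.50 to 5.03) and 4.78% (4.55 to 5.02) of all counts over peaks in replicates 1, 2 and 3. These intervals cover counting error only. The mean share was 4.67% ± 0.18 (SD, n = 3), and the members made up 3.80% of the peaks and 4.13% of the bases covered by peaks.

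It was then asked whether the 3 libraries agreed at the members. A chi-square test against the scaled library sizes, adjusted over all 1131 peaks by the Benjamini-Hochberg method, called 1 of 43 members, whereas 17.9% of all peaks were called. Without adjustment, 8 of 43 members (18.6%) and 368 of 1131 peaks (32.5%) had a p under 0.05. Without replicate 1 no member was called, but only 31 of all 1131 peaks were. Without replicate 2 it was 1 member (Rps26) and 183 of all peaks, and without replicate 3 it was 1 member and 95 of all peaks. The median member had 36, 25 and 27 counts in replicates 1, 2 and 3, so small differences were not detectable at this depth, and a missing call does not show that the libraries agreed.

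**Figure D2:**
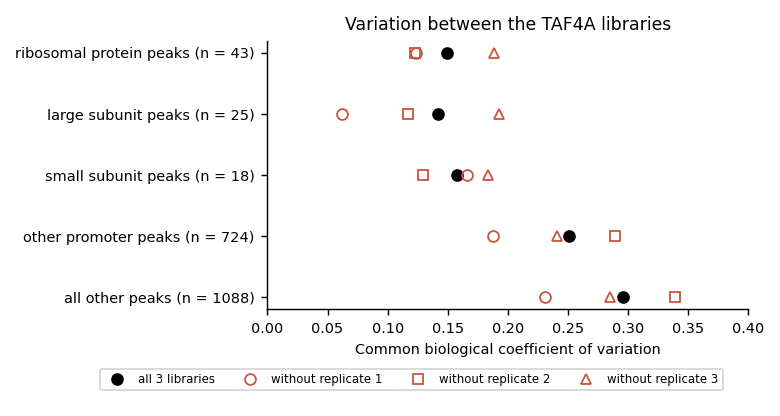
Common biological coefficient of variation between the TAF4A libraries, from edgeR, for sets of peaks, with filled points for all 3 libraries and open symbols for fits without 1 of them. The ribosomal protein peaks lie at 0.149 and the other promoter peaks at 0.251, and the ranges without 1 library overlap from 0.187 (others without replicate 1) to 0.189 (members without replicate 3).

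The biological coefficient of variation, the spread between libraries beyond counting noise, was 0.149 over the members and 0.251 over the other promoter peaks. When 1 library was left out it was 0.123 to 0.189 for the members and 0.187 to 0.289 for the others, and in each case the members were lower. Among peaks that reached 10 counts in all 3 libraries it was 0.148 (37 members) and 0.223 (511 others). It was 0.142 in large-subunit and 0.158 in small-subunit peaks. Their order rested on the libraries used, with 0.062 and 0.166 without replicate 1, 0.117 and 0.129 without replicate 2, and 0.193 and 0.183 without replicate 3. This is a description of the 2 sets, without a test.

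Single members were compared in the same way. The highest library exceeded the lowest more than 2-fold at 7 of 43 members (16.3%) and at 236 of 724 other promoter peaks (32.6%). The widest such range, 2.51-fold, was at Rpl13, with 11, 12 and 20 counts. Rpl24 had the closest libraries, with 31, 17 and 23 counts, or 23.7 ± 0.31 normalised counts (SD, n = 3). After scaling, which itself evens out the libraries, replicates 1, 2 and 3 were the highest at 14, 15 and 14 members and the lowest at 15, 18 and 10. They were the highest at 11, 7 and 7 large-subunit and at 3, 8 and 7 small-subunit peaks. Between libraries, log2 normalised counts of the 43 members correlated with Pearson's r of 0.844 (replicates 1 and 2), 0.882 (1 and 3) and 0.855 (2 and 3). The corresponding values of the 724 other promoter peaks were 0.825, 0.779 and 0.796. The points are peaks of the same libraries, so these values are descriptions.

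Peak width was examined next, since the count of a peak depends on it. The median width of the members was 201 bases (quartiles 159 and 244, range 100 to 417), and that of other promoter peaks was 171.5 bases (121 and 243). Among peaks that reached 10 counts in all 3 libraries the direction turned, with medians of 202 and 208 bases. It was 191 bases in large-subunit and 201.5 bases in small-subunit peaks. The widest members were Rps26 with 417 bases, Rpl13a with 359 bases and Rplp0 with 327 bases. Rpl13a, which also has a role outside the ribosome in inflammation, had 85, 41 and 59 counts, or 60.9 ± 3.96 normalised counts (SD, n = 3), and close libraries. The narrowest were Rpl17 and Rpl27a with 100 bases, the narrowest width in the whole table, and Rpl13 with 101 bases. Rpl13 had 15.3 ± 6.38 normalised counts (SD, n = 3). Since every peak in the set is at least 100 bases wide, these 3 were at or next to the lower limit.

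**Figure D3:**
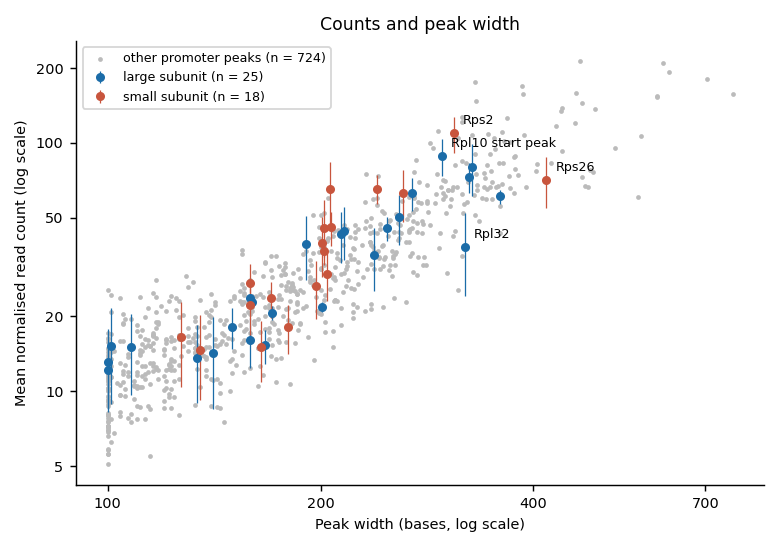
Mean normalised count against peak width, both on log scales, for the 25 large-subunit and 18 small-subunit peaks (coloured, with SD over 3 libraries) over the 724 other promoter peaks (grey). The members follow the course of the grey points, and Rps26, at 417 bases, lies below Rps2, at 309 bases.

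For the members, Pearson's r between log2 width and log2 count was 0.899, 0.802 and 0.830 in the order of the replicates, compared with 0.848, 0.813 and 0.856 for other promoter peaks. These are descriptions over peaks that share a library. Relative to width, Rps2 was high, with 35.4 normalised counts per 100 bases against a median of 14.9 for the members and 13.7 for other promoter peaks. Rpl10 had 29.8 at the start peak. Rpl32 was low for its 320 bases, with 44, 39 and 26 counts and 11.9 normalised counts per 100 bases. Rpl32 was also among the few members whose peak did not reach the transcript start.

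The position of the peaks relative to the gene start was then determined. In the table, the median distance between peak centre and gene start was 64 bases, and 40 of 43 peaks were within 1000 bases. The exceptions were Rps24 (3509 bases), Rpl17 (1897 bases) and Rps2 (1886 bases). At all 3 of these genes an annotated transcript starts nearer to the peak, with the centre 47.5, 22 and 61.5 bases upstream of it. Rps24, a small-subunit protein, had 29, 25 and 22 counts, or 26.5 ± 6.97 normalised counts (SD, n = 3), with replicate 2 the highest after scaling. Measured to the nearest transcript start of their own gene, all 43 peaks were within 494 bases.

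**Figure D4:**
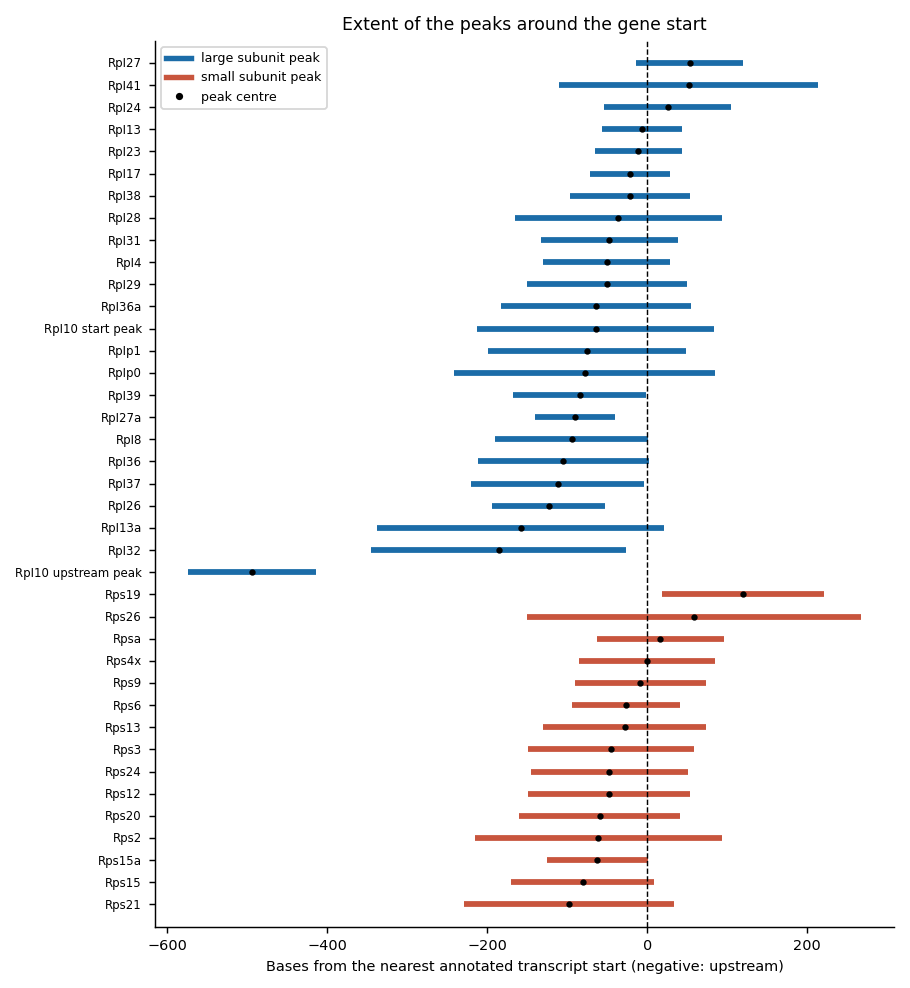
Extent of 39 of the 43 peaks in bases relative to the nearest annotated transcript start of their gene (dashed line, negative values upstream), with a bar from start to end of each peak, a point at its centre and colour for the subunit. Most bars cross the start with their centre upstream, and 32 of the 39 span it.

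Most peaks straddled the start with the larger portion upstream. The median centre was at -50.5 bases, that is upstream (quartiles -87.25 and -22), and 36 centres were upstream, 6 downstream and 1, Rps4x, on the start. Centres within 100 bases were found for 35 of 43 members (81.4%) and 415 of 724 other promoter peaks (57.3%). The peak itself spanned the start at 36 of 43 members (83.7%) and 390 of 724 other promoter peaks (53.9%). By symbol, the gene with the nearest transcript start was the listed gene at 42 of 43 members but at 594 of 724 other promoter peaks. The part of this in both shares was not tested. Among small-subunit peaks 17 of 18 spanned the start, and among large-subunit peaks 19 of 25. The peaks of Rpl26, Rpl27a, Rpl32, Rpl37 and Rpl39 and the upstream peak of Rpl10 ended before the start. The peak of Rps19, a small-subunit protein needed for rRNA processing, lay downstream of it, with a centre at 120 bases and with 51, 27 and 33 counts.

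These positions depend on which start is taken, because ribosomal protein genes have many annotated starts. The genes in question had a median of 5 annotated transcript starts, as did those of other promoter peaks. For 32 member peaks of 31 genes a single RefSeq start was at hand, the one used for the promoter sequences and for the motif positions given further on. Measured from it, the median centre was 70 bases upstream, 30 of 32 centres were upstream, 22 (68.8%) were within 100 bases, and 24 of 32 peaks spanned the start. Of 556 other promoter peaks with a RefSeq start, 43.5% were within 100 bases and 39.6% spanned it. The largest shifts were at Rps26, Rps19 and Rpl41. The centre of the Rps26 peak was 58.5 bases downstream of a transcript start and 182.5 bases upstream of the RefSeq start, so that the printed sequence holds part of the peak only. The Rps19 peak, downstream of its nearest transcript start, was centred 101 bases upstream of the RefSeq start. The Rpl41 centre was 52 bases downstream of the former and 85 bases upstream of the latter. Rpl24 and Rpl27 were the only 2 of these 31 genes with a centre downstream of both starts.

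Chromosome 7, which holds 14 of the 83 genes, had 11 of the 43 peaks and 102 of all 1131 peaks. Chromosome X, which holds 4 of the 83 genes, had 5 of the 43 peaks, both peaks of Rpl10 among them, and 20 of all 1131 peaks. Rpl41 and Rps26 on chromosome 10 lie 77435.5 bases apart, and both were among the 5 highest members.

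Since NF-Y and SP1 motifs were studied under TAF4A peaks, motifs were counted in the promoters of the family. An entry in the RefSeq promoter table, with 250 bases before the start and 50 after it, was matched for 63 of 83 genes, 31 of them with a listed peak, 5 with a peak listed for a neighbour and 27 with no peak. The 27 with no peak include all 6 paralogs named above, and the 31 with a listed peak include none of them. Shares are descriptions, without a test, and a match is not evidence of binding by the named factor. The NF-Y core CCAAT was present in 45.2% of promoters with a listed peak, 18.5% of those with no peak, 57.6% of 531 other promoters with a peak, and 39.2% of all 17491 promoters. The longer CCAATCA, which contains CCAAT, was in 4 of 31 (12.9%) and 0 of 27 ribosomal protein promoters, in 23.5% of the other promoters with a peak and in 9.59% of all. None of the 5 promoters with a peak listed for a neighbour held CCAAT.

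**Figure D5:**
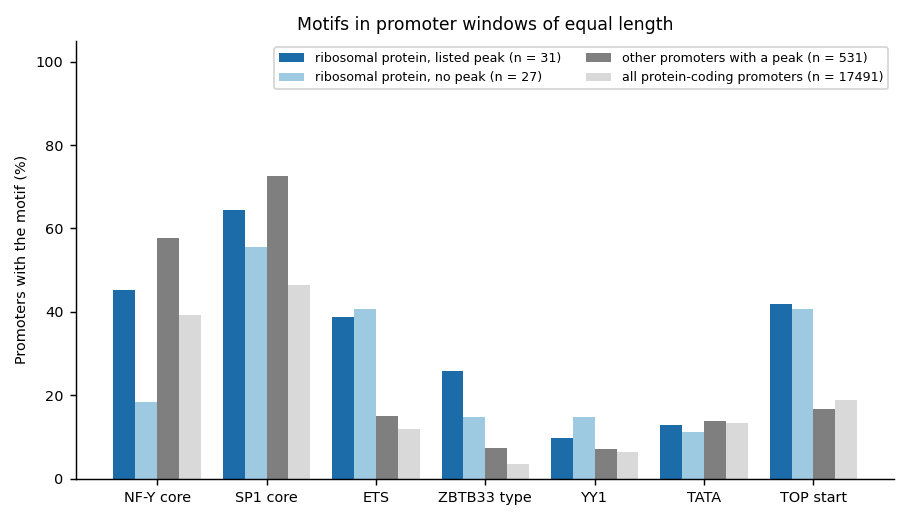
Share of promoter windows of 300 bases that hold each motif, in percent, for ribosomal protein promoters with a listed peak (31), those with no peak (27), other promoters with a peak (531) and all protein-coding promoters (17491). The ETS motif and the TOP start have a similar height in the first 2 sets and are lower in the others, and the NF-Y core differs most between the first 2 sets.

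For SP1, GGGCGG was in 64.5% of promoters with a listed peak, 55.6% of those with no peak, 72.5% of other promoters with a peak and 46.3% of all. The longer GGGCGGG, which contains it, was in 51.6%, 40.7%, 54.6% and 34.0% in the same order. The ETS motif CCGGAAG was in 38.7%, 40.7%, 15.1% and 11.9%. Its share was thus similar in ribosomal protein promoters with and without a peak, and smaller in promoters outside the family. TCTCGCG was in 25.8% and 14.8% of ribosomal protein promoters with and without a peak, in 7.35% of other promoters with a peak and in 3.65% of all. AAGATGG, the core of the YY1 motif, was in 9.68%, 14.8%, 7.16% and 6.35%. A TATAAA on the gene strand between 40 and 15 bases before the start, where a TATA box would lie, was found in 0 of 31 and 1 of 27 ribosomal protein promoters (3.70%), in 5.27% of other promoters with a peak and in 2.83% of all.

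A TOP start, meaning a C within 5 bases of the annotated start followed by at least 4 pyrimidines, was found in 28 of 63 ribosomal protein promoters (44.4%) and in 18.8% of all promoters. It was in 13 of 31 with a listed peak (41.9%), 11 of 27 with no peak (40.7%) and 4 of 5 with a peak listed for a neighbour. Counted from its first C within 5 bases of the start, the run was 5 to 20 bases long, with a median of 8. The share depends on the annotated start, and a start placed some bases away from the true one loses the run.

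The same motifs were counted in the central 200 bases of each peak, which covers all 43 members. CCGGAAG was in 15 of 43 members (34.9%) and in 10.1% of 724 other promoter peaks. TCTCGCG was in 10 members (23.3%) and 6.08% of the others. Of these 10, 7 were small-subunit peaks (of 18) and 3 large-subunit peaks (of 25). CCAAT was in 34.9% of members and 56.4% of other promoter peaks, and GGGCGG in 53.5% and 62.7%. Members with CCGGAAG had a median of 39.3 normalised counts (n = 15) and those without it 28.4 (n = 28), and members with TCTCGCG had 25.9 (n = 10) against 35.4 (n = 33). Per 100 bases of peak width, the medians were 17.1 with and 14.9 without CCGGAAG, and 14.2 with and 15.1 without TCTCGCG. Both differences in counts are small beside the range of 12.1 to 109.3 over members, and no test was made.

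The places of the motifs overlapped widely. In promoters with a listed peak, the median centre of CCAAT was 85 bases before the start, of GGGCGG 58 bases, of CCGGAAG 38 bases and of TCTCGCG 20 bases. Single matches of CCAAT lay from 220 bases before to 21 bases after the start, and those of TCTCGCG from 170 bases before it to the start itself. In promoters with no peak, the medians were 84.5 bases before the start for CCAAT, 59 for GGGCGG, 31 for CCGGAAG and 35 for TCTCGCG, and the order of CCGGAAG and TCTCGCG was turned.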

How the data were processed

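TAF4A CUT&RUN was carried out on cultured MuSCs with 3 TAF4A and 3 IgG libraries, grouped by their titles. In CUT&RUN, a protein A and micrococcal nuclease fusion cuts DNA next to an antibody, and the released fragments are sequenced. The submitters' processing notes name Trimmomatic 0.39, STAR 2.7.9a, Picard 2.21.7 and featureCounts, with the build mm10 (GRCm38). Per the methods, duplicates and spliced, multi-mapping, ribosomal and mitochondrial reads were removed, peaks were called with MACS2 against IgG at a false discovery rate of 0.05 and unified into 1 set, and each peak was listed for the nearest gene start. What the authors deposited are read counts for every peak in each of the 3 TAF4A libraries. The methods name a DESeq2 normalisation of the count matrix, but the values are whole numbers with different totals, and they were taken here as raw counts. Unifying means that a peak called in 1 library can have few counts in the others, and removal of multi-mapping reads lowers counts where a gene has near-identical copies. The planned comparison with IgG was not run, since IgG counts were not used here.

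Library sizes were scaled with TMM (edgeR 4.0.16, R 4.3.3), giving relative sizes of 1.32, 0.724 and 0.957. A chi-square test per peak with Benjamini-Hochberg adjustment over all 1131 peaks (threshold 0.05) asked whether libraries differed by more than counting noise, and was tested on simulated data. The biological coefficient of variation is the square root of edgeR's common dispersion. Log2 values used a pseudocount of 1. Differences between sets of peaks were taken within each library, with an exact sign-flip permutation test over libraries, two-sided. DESeq2 1.42.0 size factors were an alternative. Transcript starts were from GENCODE M21 on GRCm38, and promoters from RefSeq (GRCm38.p6). Sequences were read with pysam 0.24.0 and figures drawn with matplotlib 3.10.9, in Python 3.11.15 with scipy 1.17.1, pandas 2.3.3 and numpy 2.4.6. Peak coordinates are as deposited, with starts read as counted from 0, and sequence coordinates count from 1.

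Values per library were given for the 5 highest and 5 lowest members, members called by the test, the 3 widest and 3 narrowest peaks, members with more than 1 peak and members over 1000 bases from the listed start. Other named members were chosen after their values were seen. Values of some single genes, the called member among them, are not reported here, and the counts over all members include them. Gene lists (translation factors and 5′ TOP genes, ribosome assembly, regulators of ribosomal protein genes, ribosomal proteins under other symbols, muscle markers, markers of other cells) were counted by listed peaks. The members and all lists were chosen with earlier results of these data known. Alternatives were other scalings, filters, pseudocounts, widths, distances and motifs, and each library left out.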

Additional observations from a re-analysis of the deposited data

How the results depend on the processing

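No paired analysis was possible because IgG counts were not used here. Of 42 alternatives to the comparisons, 31 stayed close to the main result, within a limit set for each comparison. For the coefficient of variation, for example, the limit was a fixed ratio to the main value. Alternatives beyond their limit could still keep the direction, as several below do. At the 43 members, 86 of 86 mean normalised counts under DESeq2 size factors or total counts moved by less than the SD between libraries. The number of members that differed between libraries, 1, was 18 without scaling (517 of 1131 peaks), where the depth of the libraries enters the test, 2 with total counts (1 of them Rps21), 0 at an adjusted p under 0.01 (110 peaks), and 0 to 1 when 1 library was left out (31, 183 and 95 peaks without replicates 1, 2 and 3). The difference of members from other promoter peaks, 0.19 in log2 counts per base, was 0.072 with a pseudocount of 10, 0.37 per peak, 0.055 for peaks that reached 10 counts in all 3 libraries, and 0.16 to 0.23 without 1 library. That of large-subunit from small-subunit peaks, -0.20, was -0.13 with a pseudocount of 10, -0.51 per peak and -0.24 to -0.15 without 1 library. The width difference of members from other promoter peaks, 29.5 bases, reversed to -6 bases for peaks that reached 10 counts in all 3 libraries (medians of 202 and 208 bases). The share of counts, 4.67%, was 5.18% for those peaks and 4.61% to 4.77% without 1 library. The NF-Y share of 12.9% was 45.2% with the shorter CCAAT, which the longer motif contains. The biological coefficient of variation was 0.123 to 0.189 without 1 library. Genes with a peak numbered 42, or 39 within 1000 bases of the deposited start, 36 with a peak that reached 10 counts in all 3 libraries, 42 with ribosomal proteins under other symbols added and 48 with peaks listed for neighbours. The last of these, the RefSeq start (a median distance of 73 bases, against 64 to the deposited start), the alternatives for the coefficient of variation and the scalings of single members were chosen after seeing the data. The causes of the other changes were not tested. Groups of 3 libraries are too small for a check of single outlying libraries, and in replicate 2, with 24826 counts over peaks, low members rest on 6 to 15 counts.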

Other observations

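Other genes of the translation machinery were looked up in the same peak table. Of 20 translation factors and other genes with 5′ TOP mRNAs, 8 had a listed peak, compared with 3.79% of all protein-coding genes. The highest was Hnrnpa1, an RNA-binding protein with a TOP mRNA, with 193, 136 and 123 counts in replicates 1, 2 and 3, or 154.2 ± 30.4 normalised counts (SD, n = 3), above Rps2. Its 3 values departed from the library sizes (Benjamini-Hochberg adjusted p = 0.0435, chi-square test). Pabpc1, the poly(A)-binding protein, had 125, 53 and 74 counts, or 81.8 ± 11.4 normalised counts. The elongation factors were Eef2, with 60.1 ± 15.2 normalised counts at the nearer of its 2 peaks, Eef1g and Eef1a1. The peak of Eef1a1, with 82, 18 and 51 counts, was 7283 bases from the listed start, and its libraries differed (chi-square test, Benjamini-Hochberg adjusted p = 0.0129). Rack1, a protein of the small subunit that is named outside the rule, had 11, 8 and 11 counts, fewer than any ribosomal protein peak on average (10.3 ± 1.71 normalised counts). Eif4b and Naca completed the list.

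While 3.79% of all protein-coding genes had a listed peak, 3 of 20 genes for ribosome assembly and rRNA synthesis had one. These were Ncl, encoding nucleolin, with 53, 51 and 67 counts (60.2 ± 17.3 normalised counts), Nop56 of the box C/D particles with 35, 25 and 47 counts, and Dkc1, the pseudouridine synthase of the box H/ACA particles, with 23, 15 and 22 counts. The libraries differed at Ncl (chi-square test, Benjamini-Hochberg adjusted p = 0.0215). Of 15 factors known to act on ribosomal protein genes or their mRNAs, 7 had a listed peak, beside the same 3.79% of all genes. They were Sp1, Nfya, Gabpa, Myc, Mtor, Rps6kb1 and Taf4, which encodes TAF4A itself. The main peak of Sp1 had 201, 79 and 84 counts, or 116.4 ± 32.9 normalised counts, with replicate 1 the highest (chi-square test, Benjamini-Hochberg adjusted p = 9.81e-04). Nfya had 55, 37 and 48 counts, or 47.7 ± 5.18 normalised counts, and Gabpa had 12, 7 and 17 counts. The 2 peaks of Taf4 had 38, 17 and 8 and 68, 29 and 45 counts, and the libraries differed at the former (chi-square test, Benjamini-Hochberg adjusted p = 0.0250). Of the ribosomal proteins under other symbols 0 of 3, of the muscle markers 4 of 10 and of the markers of other cells 0 of 4 had a listed peak.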
